A study of Homo sapiens with 15 samples.

Results

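Day 3 after chromium exposure was compared with control in a human lymphoblastoid cell line, as CpG methylation along the 45S ribosomal DNA unit. The comparison used 9 of the 15 libraries of the series, namely the 3 libraries titled as day 3 and all 6 libraries titled as control. A CpG site was kept where each of these 9 libraries held at least 10 reads, and 988 sites of the 1328 that any of them listed met this limit. All libraries came from the same line, grown in RPMI medium; such lines are B cells made to grow without limit by Epstein-Barr virus. The day 3 cells had been given hexavalent chromium at 5 µM for 24 hours, and the labels carry no genetic change. The treatment note stands on every label, those of the controls included, so control status was read from the titles. The series' design text places a measurement before exposure and 3 time points after it, but no label gives a control library a day. The control titles form 2 sets of 3 libraries, called here the first and the second set by their order in the title numbering, and both entered 1 control group. Each set, and day 3, carries replicate numbers 1 to 3, while fewer biological replicates are named in the protocol. Separate cultures are not stated, so every p-value here is set against variation between libraries that could be purely technical. Methylation data of this kind hold no marker by which the cell type or the exposure could be checked.

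The 45S unit is repeated in tandem on the short arms of the acrocentric chromosomes and is transcribed by RNA polymerase I into a long precursor of the ribosomal RNAs. The 5' external transcribed spacer (5' ETS) and the internal transcribed spacers ITS1 and ITS2 are removed from that precursor, which leaves 18S, 5.8S and 28S ribosomal RNA. Cells keep some copies active and others silent, silent copies usually carry dense CpG methylation around the promoter, and a percentage measured on this repeat is therefore an average over many copies and cells. Hexavalent chromium is a carcinogenic metal that enters cells and damages DNA as it is reduced.

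Bisulfite converts unmethylated cytosine so that it is read as T, and methylated cytosine stays C. The percent methylation of a site was the count of C reads over the count of C and T reads. Positions count from the start of the precursor transcript on the GenBank sequence of the human repeat, with negative positions upstream, and not on a chromosome of a genome build. Summed over every listed cytosine, C and T reads numbered from 48430382 to 81054513 per library. The median depth of the 988 sites was 739 to 1272 reads in controls and 604 to 818 reads at day 3, down to 10 reads at the shallowest. These are PCR reads without molecular identifiers, so depth speaks for counting error only.

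By the share of all reads, conversion differed between the groups by less than the SD between libraries. Of the reads at cytosines outside CpG, where little methylation is expected in such cells, 1.04% ± 0.287 (SD, n = 6) were unconverted in controls and 1.10% ± 0.247 (SD, n = 3) at day 3 (two-sided exact permutation p = 0.738). The CHG share was 1.48% ± 0.349 against 1.62% ± 0.407 and the CHH share 0.794% ± 0.252 against 0.813% ± 0.174 (exact permutation p = 0.571 and 0.905, and 0.905 for all 3 shares after adjustment). The lowest library was replicate 3 of the first control set at 0.674%, and the highest was replicate 1 of that set at 1.38%. Day 3 stood at 0.871%, 1.36% and 1.06%, inside the range of the controls. As a mean with equal weight per cytosine, the weighting used for CpG methylation, the unconverted share was higher in both groups, at 4.32% ± 1.37 in controls and 5.12% ± 1.79 at day 3 (difference 0.803 points, exact permutation adjusted p = 0.595). Day 3 stood at 3.25%, 6.81% and 5.31% on that scale, so its replicate 2 lay above the highest control at 5.79%.

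Over the whole unit, day 3 libraries were slightly more methylated in the mean than controls, and the groups overlapped. The mean over the 988 sites was 49.7%, 50.5% and 45.6% in the first control set, 50.2%, 46.4% and 46.8% in the second, and 51.5%, 50.3% and 50.5% at day 3. All 3 day 3 libraries lay above the control mean, beside the 3 higher controls and above the 3 lower ones. The group means were 48.2% ± 2.18 (SD, n = 6) and 50.7% ± 0.668 (SD, n = 3). The difference of 2.55 points had a 95% interval of -0.589 to 5.70 and did not pass the threshold of 0.05 used throughout (two-sided exact permutation p = 0.0714, where the design allows none under 0.02381). Against the first control set alone it was 2.14 points and against the second 2.97 points. Replicates 3 of both control sets were low in methylation and also lowest in unconverted reads outside CpG (0.674% and 0.770%). Replicate 2 of the second set was also low in methylation (46.4%), at an unconverted share of 1.02%. The most methylated library, replicate 1 of day 3 (51.5%), had a share of 0.871%. A link between share and methylation over the 9 libraries was not tested. With the local unconverted share (cytosines outside CpG near the site) removed from every site, the difference was 2.43 points (exact permutation p = 0.0952).

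**Figure D1:**
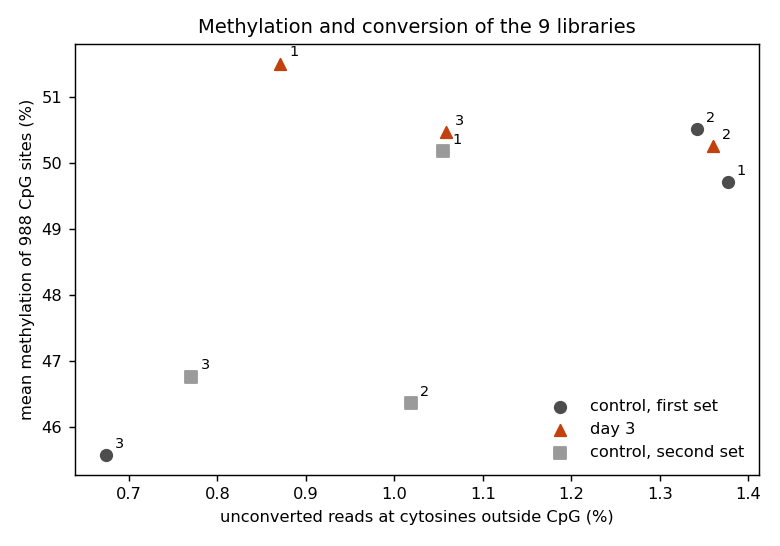
Each point is a library, with its share of unconverted reads at cytosines outside CpG (%, x axis) and its mean methylation over the 988 CpG sites (%, y axis, which does not start at 0); circles are the first control set, squares the second, triangles day 3, and digits give the replicate number. The 3 day 3 libraries lie between 50.3% and 51.5%, beside 3 controls, and above the other 3 controls at 45.6% to 46.8%.

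The mean difference varied along the unit, though parts were not tested against each other. By part it was widest in ITS1 and 5.8S, in the middle of the transcript, and close to 0 upstream and in ITS2. The 7 parts were compared by the mean over their sites in each library, and none passed after adjustment. The plot of methylation by part shows each library.

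**Figure D2:**
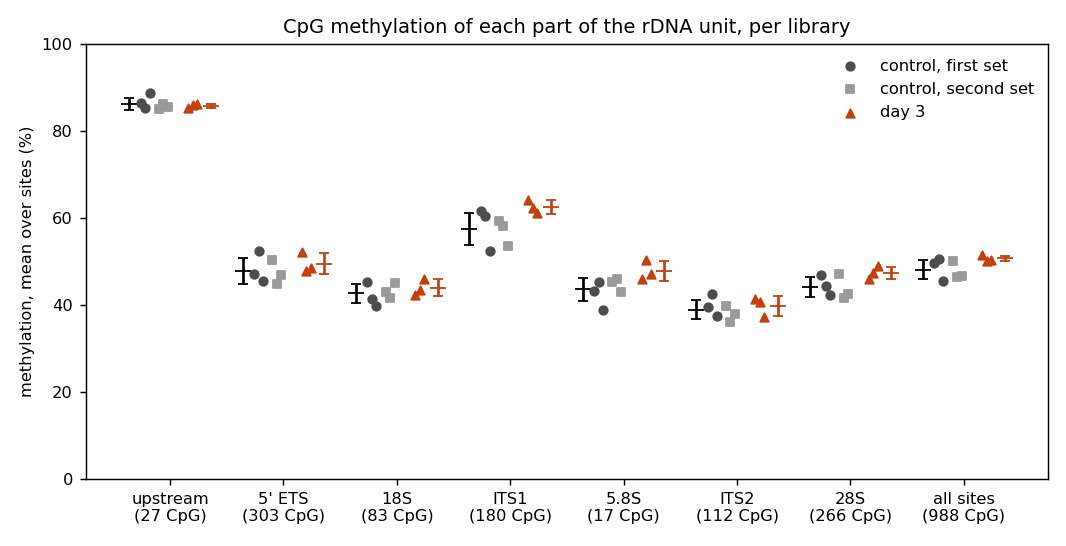
Methylation of each part of the unit (%, y axis), as the mean over its CpG sites in each library; circles and squares are the 2 control sets, triangles are day 3, and the bars give the mean ± SD of the 6 controls and of the 3 day 3 libraries. Day 3 and control overlap in every part but 5.8S, where the lowest day 3 library is at 46.1% and the highest control at 46.0%.

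ITS1, the spacer between 18S and 5.8S, showed the largest difference of the 7 parts. Its 180 sites averaged 52.4% at the lowest, 58.7% in the median and 61.5% at the highest in controls, and 64.2%, 62.4% and 61.1% at day 3. Replicate 3 of day 3 lay below the highest control, replicate 1 of the first set, and the other day 3 libraries lay above all 6. The means were 57.5% ± 3.73 (SD, n = 6) and 62.6% ± 1.56 (SD, n = 3), a difference of 5.04 points (95% interval 1.35 to 8.73, two-sided exact permutation p = 0.0476, 0.167 after adjustment over 7 parts). In limma on the percent values the adjusted p was 0.0593. The difference was 4.46 points against the first control set and 5.62 against the second. The mean weights each site equally. With reads summed over the spacer, which gives the deep sites most of the weight, the difference was 2.48 points.

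Nearly every site of ITS1 shared the direction. The day 3 mean was above the control mean at 179 of 180 sites, against 745 of 988 over the unit (75.4%). Leaving out any 1 of the 9 libraries left between 176 and 180 sites higher, and the count was 173 against the first control set and 178 against the second. Neighbouring sites lie on the same reads, so these are not 180 separate measurements. At 29 of the 180 sites all 3 day 3 libraries lay above all 6 controls, where this held for 45 of the 988 sites (4.55%). Leaving out a library can only add to that count of 45, which ran from 48 without replicate 3 of the first control set to 89 without replicate 3 of day 3. Unconverted reads outside CpG within ITS1 were 5.53% ± 1.35 in controls and 6.24% ± 1.33 at day 3, a higher share than in the other parts. With the local unconverted share removed, the ITS1 difference was 5.14 points.

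The first sites of ITS1 differed little in size but with little spread. From 5529 to 5574, just past the end of 18S, all 13 tested sites had every day 3 library above every control, with at least 24236 reads in each library. Over this stretch the libraries of the first control set averaged 74.9%, 72.7% and 73.6%, those of the second 75.5%, 75.1% and 74.3%, and those of day 3 76.5%, 77.4% and 76.5%. The groups were thus separated by about a point. Site differences ran from 0.545 to 4.39 points. Site 5543 stood at 48.1% ± 1.60 in controls and 52.5% ± 1.06 at day 3, and site 5567 at 93.8% ± 0.393 and 94.9% ± 0.312 (edgeR's quasi-likelihood test, adjusted p = 0.757 for both, by Benjamini-Hochberg over the 988 sites). The 3 last tested sites of 18S next to them, 5486, 5500 and 5514, were also separated, and their group means differed by 3.78, 3.47 and 3.99 points.

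Towards its 3' end ITS1 differed more. The window from 6254 to 6500 holds 48 sites, and its mean was 41.0% at the lowest, 49.4% in the median and 55.1% at the highest in controls, and 62.3%, 58.3% and 55.0% at day 3. Replicate 3 of day 3 lay just under the highest control, and the other day 3 libraries lay above all 6. The means of 48.5% ± 6.03 and 58.6% ± 3.66 differed by 10.03 points (0.61 as the mean log2 ratio of C to T reads, 95% interval 0.13 to 1.09, limma adjusted p = 0.329, exact permutation p = 0.0476). All 48 sites had the higher mean at day 3, and 13 of them had groups that did not overlap. Depth was lower here, with a median of 212 to 681 reads per library. In its core from 6340 to 6372 all 9 tested sites had separate groups, with day 3 at 65.9%, 61.2% and 59.2% and controls between 41.5% and 56.2%. Within it replicates 3 of both control sets were the low ones, at 41.5% and 43.6%, and the other 4 controls lay between 53.2% and 56.2%.

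Single sites of this stretch led the list of ITS1. Site 6426 was 36.9% at the lowest, 47.3% in the median and 55.8% at the highest in controls, and 67.2%, 66.7% and 58.2% at day 3. The groups did not overlap, at 207 or more reads in each library. The difference was 16.3 points (0.98 as a difference in log2 odds, that is in log2 of C over T reads, edgeR adjusted p = 0.536). Site 6394 differed by 14.99 points (35.8% ± 7.12 against 50.8% ± 5.55), and its groups overlapped in the range from 45.04% to 48.1%. Site 6508, just 3' of the window, stood at 17.2% ± 7.95 and 26.5% ± 5.09, with replicate 2 of the second control set at 32.9%, above all day 3 libraries.

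5.8S, the short gene whose RNA pairs with 28S in the large ribosomal subunit, was the single part whose groups did not overlap. Its 17 sites averaged 43.4%, 45.4% and 38.9% in the first control set, 45.4%, 46.0% and 43.1% in the second, and 46.1%, 50.5% and 47.2% at day 3. The gap between the highest control and the lowest day 3 library was smaller than the spread within either group. The difference between 43.7% ± 2.63 (SD, n = 6) and 47.9% ± 2.26 (SD, n = 3) was 4.26 points (95% interval 0.810 to 7.70, two-sided exact permutation p = 0.02381, the smallest this design gives, 0.167 after adjustment over 7 parts, limma adjusted p = 0.0593). All 17 sites were higher at day 3 in the mean, by 2.97 to 5.25 points, and stayed so with any 1 library left out.

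The gene fell into a densely and a sparsely methylated piece, and the day 3 means were higher in both. The first 8 sites, up to 6679, lay between 60.1% and 72.5% in controls on at least 21331 reads, and the 9 sites from 6715 to 6775 between 20.1% and 27.3% on at least 1762 reads. Sites 6650, 6654 and 6679 were the 3 with groups that did not overlap. Site 6679 stood at 60.1% ± 2.40 in controls and 64.9% ± 2.97 at day 3. The window from 6508 to 6741, which joins the end of ITS1 to most of 5.8S, was 1 of 2 windows with separate groups. It averaged 51.2% at the lowest, 54.9% in the median and 56.2% at the highest in controls, and 57.6%, 61.6% and 57.4% at day 3 (difference 4.53 points, log2 0.32, limma adjusted p = 0.386, exact permutation p = 0.02381).

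18S and the 5' ETS differed less than their spread. 18S, the RNA of the small subunit, was at 42.7% ± 2.197 in controls and 44.0% ± 1.90 at day 3. The 5' ETS, the long leader of the precursor, was at 47.9% ± 2.97 and 49.6% ± 2.39. The differences of 1.31 and 1.63 points had intervals of -2.02 to 4.64 and -1.91 to 5.16 (exact permutation p = 0.381 and 0.405, both 0.567 once adjusted). With a library left out the 18S difference ran from 0.262 (without replicate 3 of day 3) to 2.11 points (without its replicate 1), and that of the 5' ETS from 0.266 (without replicate 1 of day 3) to 2.55 points (without replicate 2 of the first control set). In 18S 71 of 83 sites were higher at day 3, but without replicate 3 of day 3 the count was 37. In the 5' ETS 205 of 303 were higher, and between 156 and 243 with any 1 library left out. Replicate 1 of day 3 was the highest day 3 library in the 5' ETS (52.3%) and the lowest in 18S (42.4%).

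Inside the 5' ETS windows went both ways. From 1086 to 1182 the mean of 16 sites was 77.4% ± 4.19 in controls and 85.8% ± 3.23 at day 3, a difference of 8.35 points (limma adjusted p = 0.479, exact permutation p = 0.0476). The median depth of that window was as low as 12 reads in a control library and 17 reads in a day 3 library. From 3331 to 3439, near the 3' end of the spacer, none of the 24 sites was higher at day 3. That window was 14.2% at the lowest, 18.7% in the median and 25.9% at the highest in controls, and 16.7%, 12.8% and 19.0% at day 3, so the groups overlapped throughout (19.1% ± 3.92 against 16.2% ± 3.17, log2 -0.29, limma adjusted p = 0.650). None of the 16 sites from 296 to 423 was higher either (26.5% ± 4.61 against 24.1% ± 3.22, limma adjusted p = 0.673). Sites 3344 and 3394 were among the lower sites of smallest p, at 14.7% ± 3.55 against 10.9% ± 2.95 and 14.4% ± 4.72 against 10.3% ± 2.31 (edgeR adjusted p = 0.757 for both). Site 3071, nearly unmethylated, held 0.0560% ± 0.102 in controls and no C read at day 3 in 1399 to 6645 reads per library. Replicates 1 and 2 of the first control set and replicate 2 of the second also stood at 0%. The other controls held 0.260% (on 385 reads), 0.0444% and 0.0320%, so the groups overlapped.

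**Figure D3:**
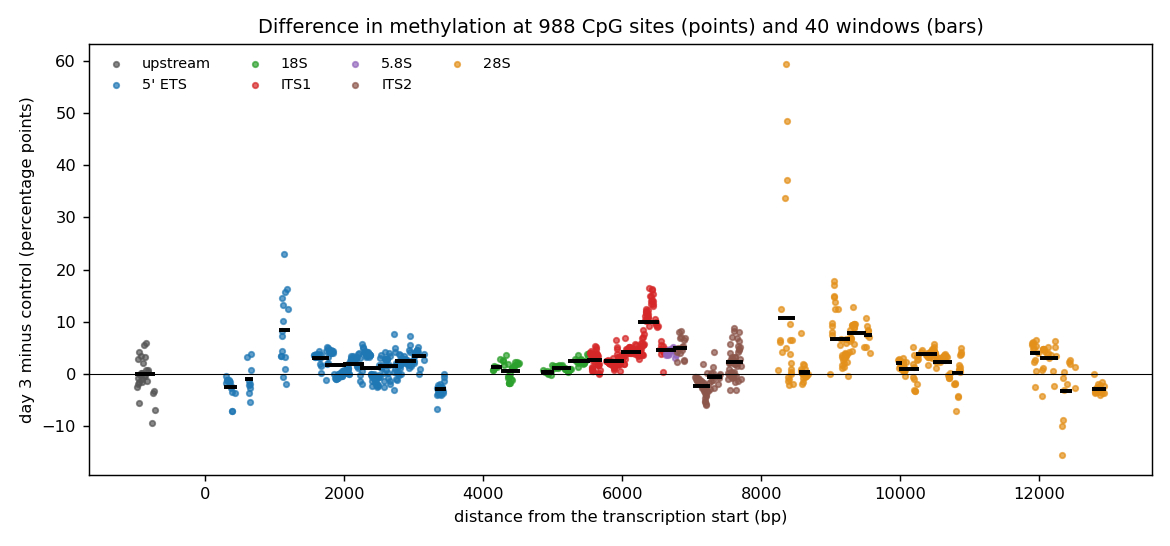
Difference in mean methylation, day 3 minus control (percentage points, y axis), at each of the 988 CpG sites against the distance from the transcription start (bp, x axis); colours give the part of the unit and black bars the mean of each of the 40 windows. Most points lie between -3.15 and 9.76 (5th and 95th percentile), the bars are highest at 8265 to 8458 and 6254 to 6500, and 8 of the 40 bars lie below 0.

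28S, the RNA of the large subunit, was higher in the mean by 3.21 points. Its 266 sites averaged 41.8% at the lowest, 43.5% in the median and 47.2% at the highest in controls, and 46.0%, 47.3% and 48.9% at day 3. Replicate 1 of day 3 lay below 2 of the controls and the other day 3 libraries above all 6. The means were 44.2% ± 2.37 and 47.4% ± 1.45 (95% interval -0.129 to 6.54, exact permutation p = 0.0952, 0.222 after adjustment), and 205 of 266 sites were higher. With reads summed the difference was -0.0793 points, so the sign rested on how the sites were weighted.

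An early stretch of 28S held the largest differences of the unit. The window from 8265 to 8458 averaged 28.9%, 23.4% and 17.9% in the first control set, 19.8%, 22.5% and 26.3% in the second, and 34.9%, 36.3% and 30.3% at day 3. The groups did not overlap. The difference was 10.7 points (log2 1.35, 95% interval 0.30 to 2.40, limma adjusted p = 0.329, exact permutation p = 0.02381), and 17 of its 22 sites were higher at day 3. The value rested on single day 3 libraries. Without replicate 3 it passed (log2 1.92, limma adjusted p = 0.0481), as the single window to do so under any of the alternatives run, and without replicate 2 it was log2 0.90 (limma adjusted p = 0.808). Nearby cytosines outside CpG read 0.262% unconverted in controls and 1.22% at day 3, and with the local unconverted share removed the difference was log2 1.34.

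Site by site, this stretch alternated between methylated and unmethylated CpGs, and its largest differences came with a change in depth. Site 8361 was 2.10% at the lowest, 10.7% in the median and 42.2% at the highest in controls, and 71.6%, 69.1% and 89.9% at day 3 (difference 59.4 points, log2 odds difference 4.72, edgeR adjusted p = 0.279). The groups lay far apart, but the controls varied over 40 points among themselves. Controls held 396 to 8202 reads there and day 3 libraries 168 to 712. Site 8374, chosen after its values were seen, showed the same at 30.2% ± 20.6 and 78.7% ± 6.90, and the counts behind it differed in 1 kind of read. Its C reads were 160 to 785 per control and 517, 122 and 165 at day 3, which overlapped, and its T reads were 210 to 6956 per control and 145, 47 and 27 at day 3, which did not. At site 8372, 2 bases before it, the groups overlapped, with replicate 3 of day 3 at 33.3% and controls up to 53.2%. The T reads jumped between neighbouring sites in both groups. In replicate 2 of the second control set they went from 4133 at site 8372 to 420 at 8374, while the C reads were 212 and 209. In replicate 3 of day 3 the T reads were 1253, 17, 338 and 27 at sites 8339, 8361, 8372 and 8374, where its methylation read 6.70%, 89.9%, 33.3% and 85.9%. Further on, at 8411 to 8458, the groups overlapped at each site. The source of the T reads was not tested.

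**Figure D4:**
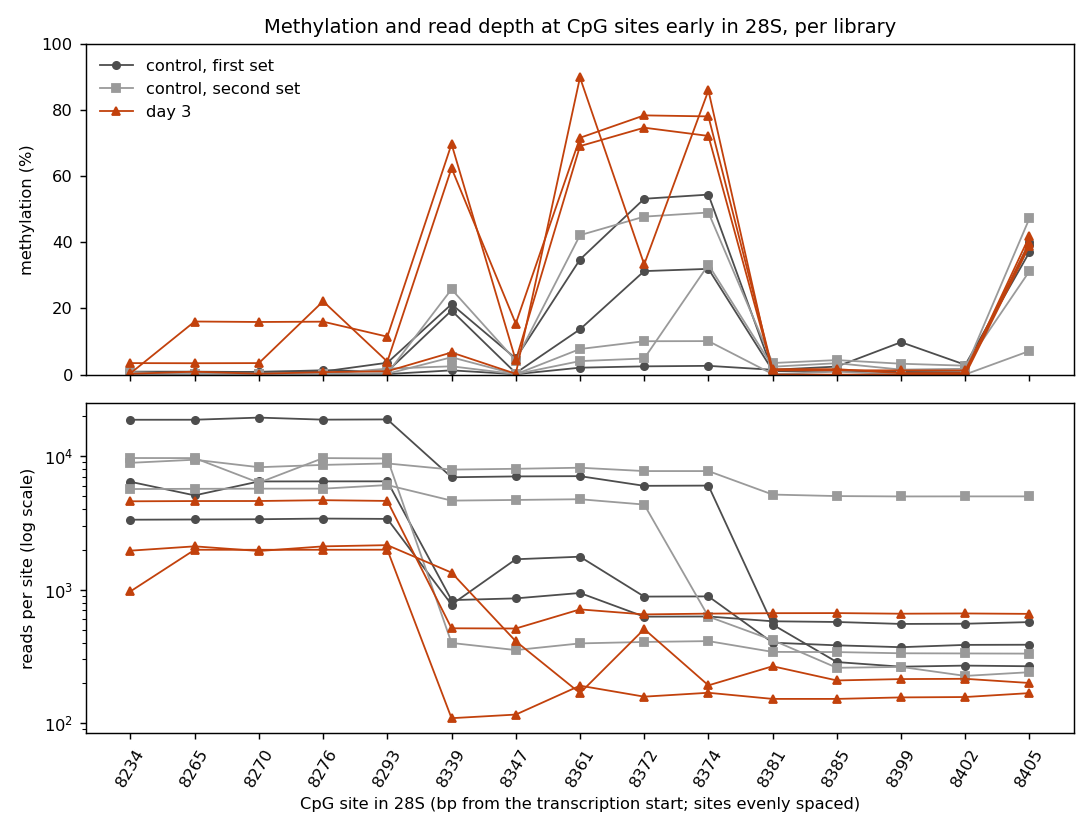
Methylation (%, upper panel) and reads per site (log scale, lower panel) at the first 15 tested CpG sites of 28S, evenly spaced and labelled by distance from the transcription start in bp; each line is a library, with circles and squares for the 2 control sets and triangles for day 3. Day 3 lies highest at 8361 and 8374, where its depth is 168 to 712 reads against 396 to 8202 in controls, replicate 3 drops to 33.3% at 8372 between them, and the groups meet again at 8381 to 8405.

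Site 8265, at the start of that window, was almost unmethylated in controls, at 0.165% to 0.893%, and at 3.44%, 16.1% and 0.899% at day 3. The groups were separated only narrowly, since replicate 3 of day 3 lay next to the highest control. At 1992 or more reads in each library the difference was 6.47 points (log2 odds difference 4.02, edgeR adjusted p = 0.279, the lowest of all 988 sites together with 8361 and the outermost upstream site). Without replicate 3 of day 3 it passed (log2 odds difference 4.91, edgeR adjusted p = 0.00980), without replicate 2 it was 2.87 (adjusted p = 0.407) and without replicate 1 4.26 (adjusted p = 0.890). Sites 8270 and 8276 next to it had the same high libraries, with 3.49% and 22.2% in replicate 1, 15.9% and 16.0% in replicate 2, and 0.256% and 0.758% in replicate 3. Nearby cytosines outside CpG read 0.0440% unconverted in controls and 0.810% at day 3. The value with that share removed comes from limma on the log ratio, which gave 3.99, against 3.81 by limma without the removal. Site 8565, the first of the following window, stood at 83.9% ± 4.73 against 91.8% ± 4.43 (edgeR adjusted p = 0.584).

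From 9009 to 9561 in 28S, 3 neighbouring windows were all higher at day 3. The windows 9009 to 9248, 9267 to 9472 and 9501 to 9561 differed by 6.64, 7.84 and 7.52 points (31.7% to 38.3%, 45.8% to 53.7% and 43.9% to 51.4%, limma adjusted p = 0.386 for each). At day 3 the window from 9501 to 9561 was at 53.1%, 50.1% and 51.1%, and controls ran from 37.7% to 50.9%, so a single control, replicate 1 of the second set, reached into the day 3 range. In these windows 30 of 31, 17 of 17 and 8 of 8 sites were higher in the mean. Their depth was low, with a median of 26 to 199 reads in day 3 libraries. Unconverted reads nearby moved the same way, from 5.39% to 9.45%, from 2.25% to 4.69% and from 0.539% to 1.02%. With that share removed all 3 windows stayed higher at day 3, at log2 0.28 in place of 0.45, 0.40 in place of 0.46 and 0.43 in place of 0.44. Site 9009 (26.2% ± 3.55 against 33.6% ± 2.93) had separate groups, but with the same correction its sign turned. In limma on the log ratio its difference was -0.85 in place of 0.53 (0.58 in edgeR without the correction). Site 9219, at 25.98% ± 2.71 and 32.7% ± 4.18, kept its sign (0.40 in place of 0.47 in limma, 0.50 in edgeR without the correction).

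The last windows of 28S went the other way. From 12321 to 12444 the means were 67.2% ± 8.12 and 63.9% ± 3.16 (limma adjusted p = 0.673) on a median of 10 to 89 reads per library, and the control libraries ran from 56.0% to 77.2%. From 12782 to 12931, at the very end of the gene, they were 70.1% ± 6.16 and 67.3% ± 7.28 (limma adjusted p = 0.673), with 1 of 21 sites higher at day 3. Site 10796 stood at 40.9% ± 6.22 against 33.9% ± 7.16 and site 10211 at 76.3% ± 0.948 against 73.1% ± 1.79 (edgeR adjusted p = 0.757 for both), and their groups overlapped.

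**Figure D5:**
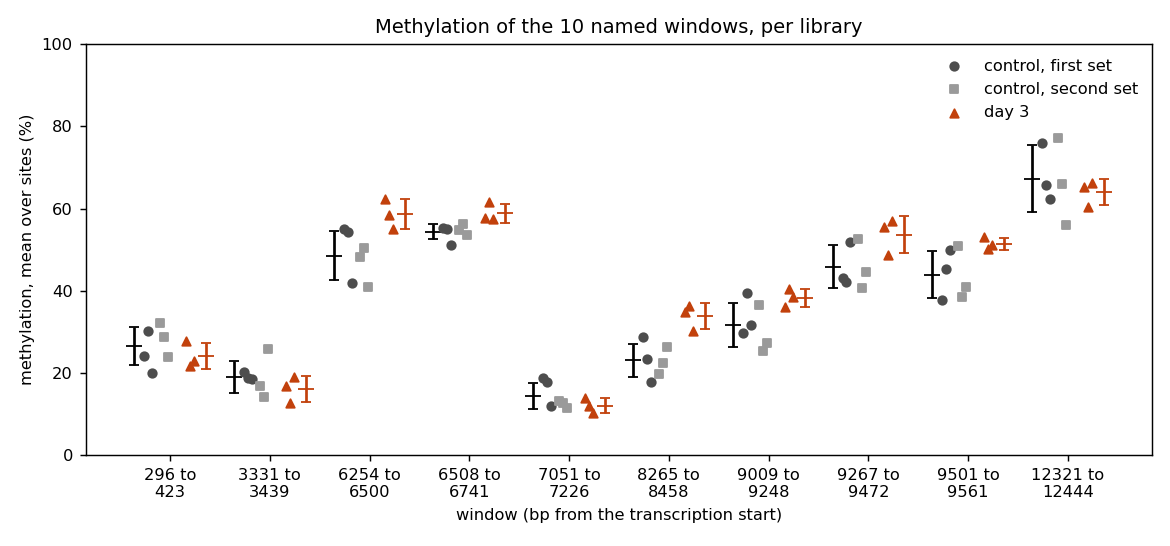
Methylation (%, y axis) of the 6 higher and 4 lower windows of lowest p, labelled by their first and last site in bp from the transcription start, as the mean over sites in each library; circles and squares are the 2 control sets, triangles day 3, and bars the mean ± SD. The triangles stand clear of all controls in the windows 6508 to 6741 and 8265 to 8458, and overlap them in the other 8.

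ITS2 and the upstream sequence differed by less than the SD between libraries. ITS2, the spacer between 5.8S and 28S, stood at 39.0% ± 2.21 in controls and 39.8% ± 2.21 at day 3 (difference 0.882, 95% interval -2.47 to 4.24, exact permutation p = 0.643), with 56 of 112 sites higher. Without replicate 1 of day 3 the difference was 0.0636 points, and without its replicate 3 2.14 points. The window from 6752 to 6894, which holds the last sites of 5.8S and the first of ITS2, was higher at all 19 sites (25.7% ± 4.92 against 30.7% ± 3.49, limma adjusted p = 0.573), and the first window wholly in ITS2, 7051 to 7226, was higher at 2 of 36 sites (14.3% ± 3.16 against 12.1% ± 1.76, limma adjusted p = 0.673). Sites 7203 and 7200 in the latter were at 24.1% ± 4.26 against 18.3% ± 3.78 and at 23.2% ± 4.76 against 17.5% ± 3.81. Day 3 lay at 13.9%, 12% and 10.3% in that window, and 2 control libraries of the first set stood highest, at 18.9% and 17.8%. The difference was -4.14 points against the first set and -0.415 points against the second.

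Upstream of the transcription start, the 27 tested sites all lay at -719 or farther upstream. The next tested site was at 296 in the 5' ETS, so the sequence around the start was not tested. The upstream values therefore do not speak for a promoter at the start. As tested, the upstream sequence was the most methylated part, at 86.2% ± 1.38 in controls and 85.8% ± 0.525 at day 3. The difference was -0.385 points (95% interval -3.52 to 2.75, exact permutation p = 0.762). It held the 2 sites of the unit whose 3 day 3 libraries all lay below all 6 controls (0.202% of the 988). The outermost tested site stood at 95.4%, 96.1% and 97.2% at day 3 and between 98.1% and 100% in controls, on at least 100 reads (edgeR adjusted p = 0.279). Site -766 stood at 75.6%, 78.0% and 74.0% at day 3 and between 78.4% and 93.8% in controls, on as few as 32 reads (edgeR adjusted p = 0.757). Site -719 overlapped, at 73.9% ± 6.19 against 66.9% ± 2.13. Of the 27 upstream sites 12 were higher.

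Site by site, no CpG of the unit passed. edgeR's quasi-likelihood test called 0 of 988 sites (0%, lowest adjusted p = 0.279), with 57 sites at an unadjusted p under 0.05, of which 55 were higher at day 3 and 2 lower. Without replicate 1 of day 3 that count of 57 was 22. limma on the log ratio called 0 with 66 at that level, and a quasi-binomial model 0 with 73. Of the 40 windows of 250 bp limma called 0 (0%), with 5 at an unadjusted p under 0.05, all higher, and the groups were separate in 2 windows (5%). On the percent scale the lowest adjusted p of a window in limma was 0.0510. The median absolute difference of a site was 2.89 points, below the median SD between control libraries of 4.71 points and between day 3 libraries of 3.46 points. Differences over 10 points stood at 48 sites that were higher and 2 that were lower, and over 15 points at 13 and 1.

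The direction ran in long stretches. From 5671 in ITS1 to 6894 in ITS2, 179 tested sites in a row were higher at day 3, by 5.41 points in the mean, and from 4993 in 18S to 5664 in ITS1 76 sites in a row, by 2.23 points. The longest lower stretch held 23 sites, from 3331 to 3430 in the 5' ETS. The differences of sites 1 to 25 bp apart had Pearson's r = 0.658 over 3496 pairs, falling to 0.445 at 26 to 100 bp and 0.233 beyond that, up to 250 bp. Such pairs share libraries, reads and amplicons, so these values are a description.

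The share of higher sites also differed between bands of the level in controls. Of the sites at 30 to 50% in controls 89.1% were higher at day 3 (293 sites), and of those at 50 to 70% 90.5% (285 sites). Sites at 10 to 30% were split at 50% (166 sites), and sites under 10% were higher in 42.2% (64 sites), with a median difference of -0.134 points. Of the 180 sites at 70% or more 64.4% were higher. The control mean sets the band and also enters the difference, so bands and differences are not independent, and no test was run on them. The bands and the parts of the unit were not separated here.

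The limit of 10 reads decided which sites were seen. The 40 sites whose lowest depth was 10 to 12 reads had a median difference of 3.32 points, from -15.6 to 16.2. Another 86 sites missed the limit in 1 library, most often replicate 2 (40 sites) or 3 (29 sites) of the second control set. Over the libraries that did hold at least 10 reads their median difference was 0.178 points, from -20.5 to 25.9.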

How the data were processed

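Genomic DNA was bisulfite converted, amplified with a primer panel and sequenced as paired ends, per the labels' protocols. Per the submitters' processing notes, the tools were methylKit, SAMtools 1.3.1, BSMAP 2.90 and Trim Galore (roles not given) and the builds hg19 and GRCh37. Per the file headers, the deposited tables list for each cytosine its context, the counts of C and T reads and the methylated fraction. The counts were used as deposited by the authors, and percent methylation was computed from them and not from the deposited fraction. The boundaries of the 7 parts come from the published layout of the GenBank sequence, from outside the files. They were compared with 5 RefSeq copies of the unit in assembly GRCh38.p14, whose boundaries shifted by at most 51 bp, which moves 6 tested sites to another part.

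Sites were tested with edgeR 4.0.16 in R 4.3.3 (quasi-likelihood, C and T counts, a library effect and a group term, Benjamini-Hochberg over 988 sites, threshold 0.05). Windows of 250 bp with 5 or more sites (40 windows, 981 sites, 7 sites in none) were tested with limma 3.58.1 on the mean of log2((C + 0.5)/(T + 0.5)), adjusted over the 40. Percent values of parts, windows and the unit were compared by two-sided exact permutation over the 84 assignments of 6 and 3 libraries. The 95% intervals of parts come from limma on percent. The site and window tests were also run on simulated counts. These were drawn separately for each site, without the correlation of neighbouring sites, so they cannot show how the window test behaves on these data. Local unconverted share means that of cytosines outside CpG within 100 bp.

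Named sites were the 10 of lowest p in each direction with all 3 day 3 libraries on that side of the control mean and at least 30 reads, at most 2 per window, since none was called. Named windows were the 6 higher and 4 lower of lowest p. Sites and windows named beyond this were chosen after their values were seen. The members and lists were chosen with earlier results of these data known. Alternatives were depth limits of 30 and 100 reads, other tests, window sizes, pseudocounts and scales, each control set alone, each library left out, and a replicate block. Limma on the parts, the RefSeq boundaries and the counts of directions without each library were added after seeing the data. Depth profiles of same-group libraries gave chi-square values of at least 855 per degree of freedom, so none was taken as a copy. Days 7 and 14 were left out.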

Additional observations from a re-analysis of the deposited data

Results flagged for a closer look

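The 6 controls were searched for a library far from the others in 41 quantities, and 5 had one, where chance gives about 1 in 20. The quantities share libraries and sites, and some lie near 0%, so that rate is only a rough guide and no excess is read from it. The values stated are the gap of that library to its nearest neighbour over the range of the group. In the upstream sequence replicate 3 of the first set was high, at 88.8% against 85.0% to 86.4% in the other 5 (0.635). At site 8265 replicate 2 of the first set was high, at 0.893% against at most 0.316% (0.793). At site 6508 replicate 2 of the second set was at 32.9% against at most 15.8% (0.752). At site 3394 replicate 3 of the second set was at 23.5% against at most 14.04% (0.689). At site 3071 replicate 3 of the first set was at 0.260% against at most 0.0444% (0.829).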

How the results depend on the processing

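Deviations from the group means were correlated between the averaged controls of a replicate number and the day 3 library of that number. The same-numbered values were r = -0.162, 0.0521 and -0.119, and differently numbered ones ran from -0.180 to 0.296. So few values cannot show whether replicate numbers stand for shared cultures. With a replicate block edgeR called 2 sites (8265 and 8270), limma no window, and among parts ITS1 (5.04 points, limma adjusted p = 0.0124) and 5.8S (4.26 points, 0.0248) passed. Leaving out each library gave 0 to 2 called sites and 0 to 1 windows. The 2 sites were 8265 and 8276, and the window 8265 to 8458, all without replicate 3 of day 3. The mean over all sites passed at 100 reads (2.59 points, exact permutation p = 0.0238) and without replicate 2 of the first control set (3.02 points, p = 0.0357), in a range of 2.03 to 3.02 points over the libraries left out, and was 1.08 points with reads summed. The upstream difference turned to a rise at 100 reads (0.556), with reads summed (0.365) and against the second set (0.245), and ran from -0.622 to 0.134 over the libraries left out. ITS2 turned with reads summed (-1.58) and against the first set (-0.0608), and 28S with reads summed (-0.0793). Site 9009 turned with the local unconverted share removed (-0.85, limma on the log ratio). Unconverted shares turned against the first set (CHH -0.0779, outside CpG -0.0342 points) and over the libraries left out (CHG -0.0792 to 0.325, CHH -0.0747 to 0.0972, outside CpG -0.0749 to 0.170). The cause was not tested. ITS1 and 5.8S stayed higher under each alternative run, from 2.48 to 5.84 and from 2.99 to 5.38 points.

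The 3 day 3 libraries, depths down to 10 reads and a control SD near 5 points limit what single sites can show. Which libraries shared a sequencing mix is not given, so batch and group cannot be told apart.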
